A study of Mus musculus with 6 samples.

Results

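The 6 mature arms of the miR-146a, miR-146b and miR-155 precursors were followed in endothelial progenitor cells (EPCs) cultured from mouse bone marrow. The arms were found by an exact match of the names mmu-miR-146a-5p, mmu-miR-146a-3p, mmu-miR-146b-5p, mmu-miR-146b-3p, mmu-miR-155-5p and mmu-miR-155-3p in the deposited count table, which held 1915 mature names in 2061 rows. Each of the 6 names had 1 row, and no other name carried counts identical to any of them. The CAP group was cultured from male C57BL/6J mice exposed by inhalation to concentrated ambient fine particulate matter (CAP), and the air group from male C57BL/6J mice of the same age kept in HEPA-filtered air. The mice were adult and carried no engineered allele, and each group was a single cage. Small RNA from 3 cultures of each group was sequenced, after 12 days in culture according to the labels, a time that differs from the one in the study's methods. Cells were exposed inside the animal and harvested only after the culture period. The question addressed here was whether these inflammation-linked miRNAs were at other levels after CAP than after air exposure.

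NF-kB is a transcription factor that Toll-like receptors and inflammatory cytokines switch on. It induces transcription of the miR-146a precursor, and mature miR-146a in turn represses Traf6, an adaptor, and Irak1, a kinase, which carry the receptor signal to NF-kB, so that the pair is known as a negative feedback loop. miR-155 is induced in activated macrophages, dendritic cells and lymphocytes and represses Socs1 and Inpp5d (SHIP1), which restrain cytokine and phosphoinositide signalling. In endothelial cells miR-146a and miR-146b are known for limiting the response to inflammatory cytokines. Each precursor hairpin gives a 5p and a 3p arm, and for all 3 the 5p arm is the guide strand that is loaded into the silencing complex, while the 3p arm is the passenger strand.

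The mature sequences show which of the 6 can act on the same targets. They are printed 5′ to 3′ from RefSeq on GRCm38.p6, with the seed, bases 2 to 8, in capitals, since the seed sets most target pairing.
miR-146a-5p: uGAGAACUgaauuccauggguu
miR-146b-5p: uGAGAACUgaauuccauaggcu
miR-155-5p: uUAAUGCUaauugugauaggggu
miR-146a-3p: cCUGUGAAauucaguucuucag
miR-146b-3p: gCCCUAGGgacucaguucuggu
miR-155-3p: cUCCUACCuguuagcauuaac
All 6 were matched in RefSeq. The guide strands of miR-146a and miR-146b share the seed GAGAACU, which no other of 1679 mouse mature names in the RefSeq table carries. The seeds of miR-155-5p and of the 3 passenger arms were each found in that arm alone. From miR-146a-5p to miR-146b-5p the only differences were G18A and U21C, counted from the 5′ end, and the other 20 of 22 bases were the same. A read must therefore run past the seed and into the 3′ part to be assigned to 1 of the 2 genes. The passenger arms of miR-146a and miR-146b had the same base at only 4 of 22 positions.

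The hairpins are printed with both arms in capitals, since the results below compare the arms of a precursor.
Mir146 (miR-146a): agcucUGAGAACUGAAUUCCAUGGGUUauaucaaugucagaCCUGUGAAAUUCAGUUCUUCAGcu
Mir146b (miR-146b): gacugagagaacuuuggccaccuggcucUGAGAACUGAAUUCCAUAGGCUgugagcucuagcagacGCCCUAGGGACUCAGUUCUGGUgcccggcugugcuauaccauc
Mir155 (miR-155): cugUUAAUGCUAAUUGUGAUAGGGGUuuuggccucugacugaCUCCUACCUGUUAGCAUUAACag
On GRCm38, the assembly that mm10 denotes, Mir146 lies on the minus strand of chromosome 11 (43374397 to 43374461) and overlaps no other gene of the GENCODE annotation. Mir146b lies on the plus strand of chromosome 19 (46342762 to 46342870), in an intron of the protein-coding gene Mfsd13a. Mir155 lies on the plus strand of chromosome 16 (84714140 to 84714204), in an exon of the noncoding gene Mir155hg. The 3 genes are therefore on 3 different chromosomes.

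Column totals were 19978586 to 25532775 counts, and 13831209 to 18107578 with 1 row per mature name. The 6 arms together held 0.155 to 0.237% of the counts of a library. Levels are given as CPM, counts scaled to a common library size with TMM (a correction for library composition). About 3 counts, the 1-sided 95% Poisson upper limit for a count of 0, came to 0.166 to 0.222 CPM. Among markers of cell types the cultures could hold, haematopoietic miR-223-3p was at 27970 to 32060 CPM in CAP cells and 24740 to 31990 CPM in air cells. Endothelial miR-126a-3p was at 749 to 2760 CPM in CAP cells and 1516 to 4005 CPM in air cells, so that both kinds of marker were present in all 6 libraries. CAP replicate 1 stood apart in liver-restricted miR-122-5p, at 24730 CPM against 75.0 to 277 CPM in the other 5 libraries. The cage, and the library numbers in the labels, follow the groups and cannot be told apart from exposure. The cultures are bulk samples, in which fewer cells of a type and less RNA per cell cannot be told apart. The p-values set group differences against the variation between these libraries, and with a single cage per group they do not separate exposure from cage.

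Of the 3 guide strands, miR-155-5p was at 1.43 times the air level in CAP cells, with no overlap of the groups. miR-146a-5p was at 1.23 times the air level and overlapped, and miR-146b-5p was at 0.865 times the air level and overlapped. No arm passed an adjusted p of 0.05 in the edgeR test over 677 miRNAs, which called 0% of them, and 142 of the 677 had an unadjusted p under 0.05, 78 higher and 64 lower in CAP (130 and 25 with upper-quartile scaling). limma-voom also called 0, and DESeq2 as run here called 30 of 706, or 4.25%, none of them one of the 6 arms. The study reported more called miRNAs from its own DESeq2 run.

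miR-155-5p was at 834, 1126 and 812 CPM in the CAP libraries 1, 2 and 3, and at 684, 656 and 603 CPM in the air libraries 1, 2 and 3. Every CAP library was above every air library, and CAP replicate 2 was well above the other 2. The means were 924 ± 175 CPM in CAP cells and 648 ± 41.2 CPM in air cells (SD, n = 3 each). The log2 fold change was 0.51 with a standard error of 0.15 and a 95% interval of 0.16 to 0.86 (edgeR unadjusted p = 0.0104, Benjamini–Hochberg adjusted p = 0.157). At an unadjusted p under 0.05, 11.5% of all miRNAs tested were higher in CAP, and 14.6% were higher without overlap, so miR-155-5p was one of many miRNAs with such a difference. Its unadjusted p was the 41st smallest of 677. By counts it ranked 71st to 84th in CAP libraries and 86th to 91st in air libraries. Without CAP replicate 2 the log2 fold change was 0.33 (edgeR adjusted p = 0.232).

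miR-146a-5p was at 974, 1022 and 861 CPM in the CAP libraries 1, 2 and 3, and at 556, 688 and 1080 CPM in the air libraries 1, 2 and 3. The CAP libraries lay close together, whereas air replicate 3 was above all 5 others and the other 2 air libraries were below all CAP libraries. The means were 952 ± 82.5 CPM in CAP cells and 775 ± 272 CPM in air cells (SD, n = 3 each). The log2 fold change was 0.30 with a 95% interval of −0.26 to 0.85 (edgeR unadjusted p = 0.247, adjusted p = 0.486). The difference of the means was thus smaller than the SD of the air libraries. Without air replicate 3 the log2 fold change was 0.60 (edgeR unadjusted p = 0.00574, adjusted p = 0.338), and without air replicate 1 it was 0.08.

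miR-146b-5p, the less abundant of the pair with this seed, was at 249, 226 and 235 CPM in CAP replicates 1, 2 and 3. In air replicates 1, 2 and 3 it was at 236, 281 and 304 CPM. Air replicates 2 and 3 were above all CAP libraries, and air replicate 1 lay among them. The means were 237 ± 11.6 CPM in CAP cells and 274 ± 34.6 CPM in air cells (SD, n = 3 each). The log2 fold change was −0.21 with a 95% interval of −0.50 to 0.08 (edgeR unadjusted p = 0.129, adjusted p = 0.357), and of all miRNAs tested 9.45% were lower at an unadjusted p under 0.05. It was −0.33 without air replicate 1 and −0.14 without air replicate 3.

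**Figure D1:**
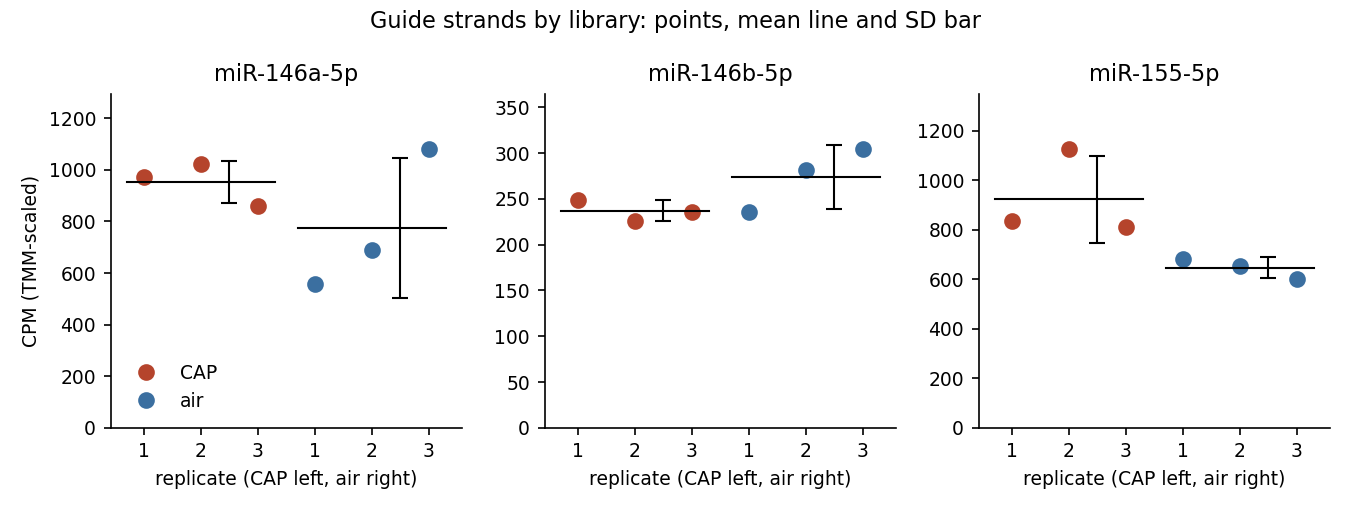
Level of the guide strands miR-146a-5p, miR-146b-5p and miR-155-5p in CPM (vertical axis, from 0) in each library (horizontal axis, CAP libraries left of air libraries); points are libraries, lines are group means and bars are SD. For miR-155-5p all CAP points (812 to 1126 CPM) lie above all air points (603 to 684 CPM), while miR-146a-5p in air spans 556 to 1080 CPM.

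The spread among replicates also differed between the guide strands, over 3 libraries per group, and this difference was not tested. For miR-146a-5p it lay mainly in the air group, with an SD of 272 CPM against 82.5 CPM in CAP. The within-group SD of log2 CPM was 0.36 for miR-146a-5p, 0.20 for miR-155-5p and 0.14 for miR-146b-5p, against a median of 0.15 over the 184 miRNAs with a mean of at least 100 CPM. Of those 184, 89.7% had a smaller spread than miR-146a-5p, 67.9% a smaller spread than miR-155-5p and 46.2% a smaller spread than miR-146b-5p. The highest library exceeded the lowest 1.94-fold for miR-146a-5p, 1.87-fold for miR-155-5p and 1.34-fold for miR-146b-5p. With each guide strand supported by at least 3180 counts in every library, counting error was far below this spread. Even in the lowest library for each gene, the 95% Poisson interval was only 545 to 567 CPM for miR-146a-5p, 219 to 233 CPM for miR-146b-5p and 591 to 616 CPM for miR-155-5p.

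Since miR-146a-5p and miR-146b-5p share a seed, their sum gives the level of that seed. The sum was 1223, 1248 and 1097 CPM in the CAP libraries 1, 2 and 3, and 792, 970 and 1384 CPM in the air libraries 1, 2 and 3. The groups overlapped, because air replicate 3 was again the highest library. The mean of the sum was 1189 ± 81.3 CPM in CAP cells and 1049 ± 304 CPM in air cells (SD, n = 3 each).

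The make-up of this sum was compared inside each library. The share of miR-146b-5p in the reads of the pair was 20.4, 18.1 and 21.5% in CAP replicates 1, 2 and 3, and 29.8, 29.0 and 21.98% in air replicates 1, 2 and 3. All CAP libraries were below all air libraries, but CAP replicate 3 and air replicate 3 were close, with exact 95% binomial intervals of 20.8 to 22.1% and 21.4 to 22.6% that overlap. The mean share was 19.99 ± 1.70% in CAP and 26.9 ± 4.30% in air (SD, n = 3 each), a difference of −6.94 percentage points. The exact two-sided permutation p was 0.1, the smallest that 3 against 3 libraries allow, and 0.5 when adjusted over the 5 ratios compared. A share inside a library does not depend on the scaling between libraries. Without air replicate 3 the difference was −9.42 percentage points, and without air replicate 1 or 2 it stayed below 0.

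The guide strands miR-155-5p and miR-146a-5p stood at similar levels, with a log2 ratio of miR-155-5p to miR-146a-5p of −0.22, 0.14 and −0.08 in CAP replicates 1, 2 and 3. In air replicates 1, 2 and 3 the log2 ratio was 0.30, −0.07 and −0.84. The CAP values all lay inside the range of the air values. The mean was −0.06 ± 0.18 in CAP and −0.20 ± 0.58 in air, and the difference of 0.15 was well within the spread (exact two-sided permutation p = 0.9, also when adjusted over the 5 ratios, n = 3 each). Its sign depended on single libraries, with −0.17 without air replicate 3 and 0.40 without air replicate 1. A different response of miR-155-5p and miR-146a-5p was therefore not shown.

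The passenger strands were scarce. The 3 guide strands had 182766 counts over the 6 libraries and the 3 passenger strands 206, so that 99.9% of the reads came from 5p arms. In the edgeR filter on low counts 5 of the 6 arms passed, and miR-155-3p did not.

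miR-155-3p had 7, 20 and 8 counts in CAP replicates 1, 2 and 3 and 5, 6 and 2 counts in air replicates 1, 2 and 3. This came to 0.448, 1.11 and 0.592 CPM in CAP and 0.289, 0.370 and 0.132 CPM in air. The groups did not overlap, and CAP replicate 2 was again the highest, as it was for the guide strand. Of the 677 miRNAs that passed the filter, which leave out miR-155-3p, 14.6% were higher in CAP without overlap. The share among miRNAs as scarce as miR-155-3p was not computed. CAP replicate 1 and air replicate 2 had overlapping 95% Poisson intervals of 0.180 to 0.923 and 0.136 to 0.806 CPM. In the edgeR fit with no filter on low counts, the log2 fold change was 1.41 with a 95% interval of 0.19 to 2.62 (unadjusted p = 0.026, adjusted p = 0.295). In that fit 176 of 1496 miRNAs had an unadjusted p under 0.05, 88 of them higher in CAP. The log2 fold change of miR-155-3p was 0.96 without CAP replicate 2 (edgeR unadjusted p = 0.2, adjusted p = 0.73).

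miR-146a-3p had 12, 11 and 8 counts in CAP replicates 1, 2 and 3 and 20, 16 and 7 counts in air replicates 1, 2 and 3. The level was 0.656 ± 0.0968 CPM in CAP cells and 0.869 ± 0.361 CPM in air cells (SD, n = 3 each), and air replicate 3 was the lowest library. The log2 fold change was −0.41 with a 95% interval of −1.37 to 0.55 (edgeR adjusted p = 0.574). miR-146b-3p had 11, 9 and 14 counts in CAP replicates 1, 2 and 3 and 20, 22 and 8 counts in air replicates 1, 2 and 3. The level was 0.746 ± 0.271 CPM in CAP cells and 1.01 ± 0.432 CPM in air cells (SD, n = 3 each), and the log2 fold change was −0.47 with a 95% interval of −1.53 to 0.59 (edgeR adjusted p = 0.563). For both miR-146 passenger strands the groups overlapped, and the few counts do not exclude differences of any size inside these intervals.

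**Figure D2:**
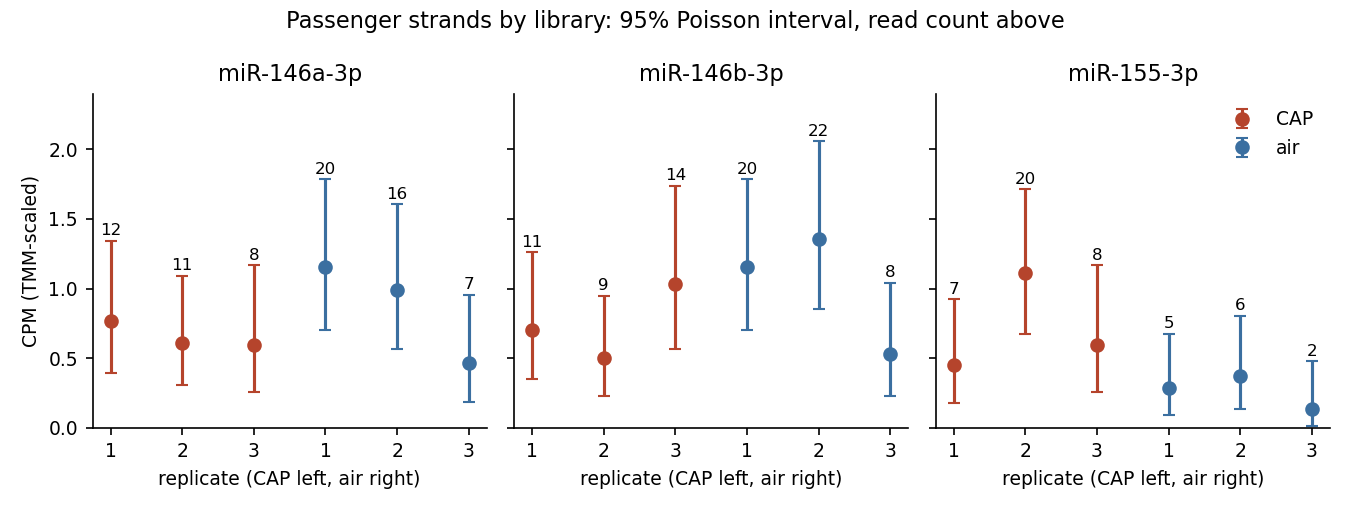
Level of the passenger strands miR-146a-3p, miR-146b-3p and miR-155-3p in CPM (vertical axis) in each library (horizontal axis, CAP left of air); bars are 95% Poisson intervals, and the number above each is the read count. Intervals overlap between groups, except that for miR-155-3p the interval of CAP replicate 2 lies above those of air replicates 1 and 3. Only for miR-155-3p do all CAP points (0.448 to 1.11 CPM) lie above all air points (0.132 to 0.370 CPM).

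The 3p share of the reads of a precursor asks whether the 2 arms moved together. For miR-155 it was 0.0537, 0.0983 and 0.0729% in CAP replicates 1, 2 and 3, and 0.0422, 0.0565 and 0.0219% in air replicates 1, 2 and 3. The groups overlapped, and the mean was 0.0749 ± 0.0224% in CAP and 0.0402 ± 0.0174% in air (exact two-sided permutation p = 0.2, n = 3 each). For miR-146a it was 0.0788, 0.0596 and 0.0687% in CAP against 0.207, 0.143 and 0.0428% in air (exact two-sided permutation p = 0.4, n = 3 each). Air replicates 1 and 2 were above all CAP libraries, and air replicate 3 was below them. For miR-146b it was 0.281, 0.220 and 0.438% in CAP against 0.487, 0.480 and 0.174% in air (exact two-sided permutation p = 0.7, n = 3 each). The groups overlapped for all 3 shares, and the p adjusted over the 5 ratios was 0.5 for miR-155, 0.667 for miR-146a and 0.875 for miR-146b. The ligation and amplification bias of small RNA libraries differs between arms, so the size of a share is not a ratio of molecules.

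**Figure D3:**
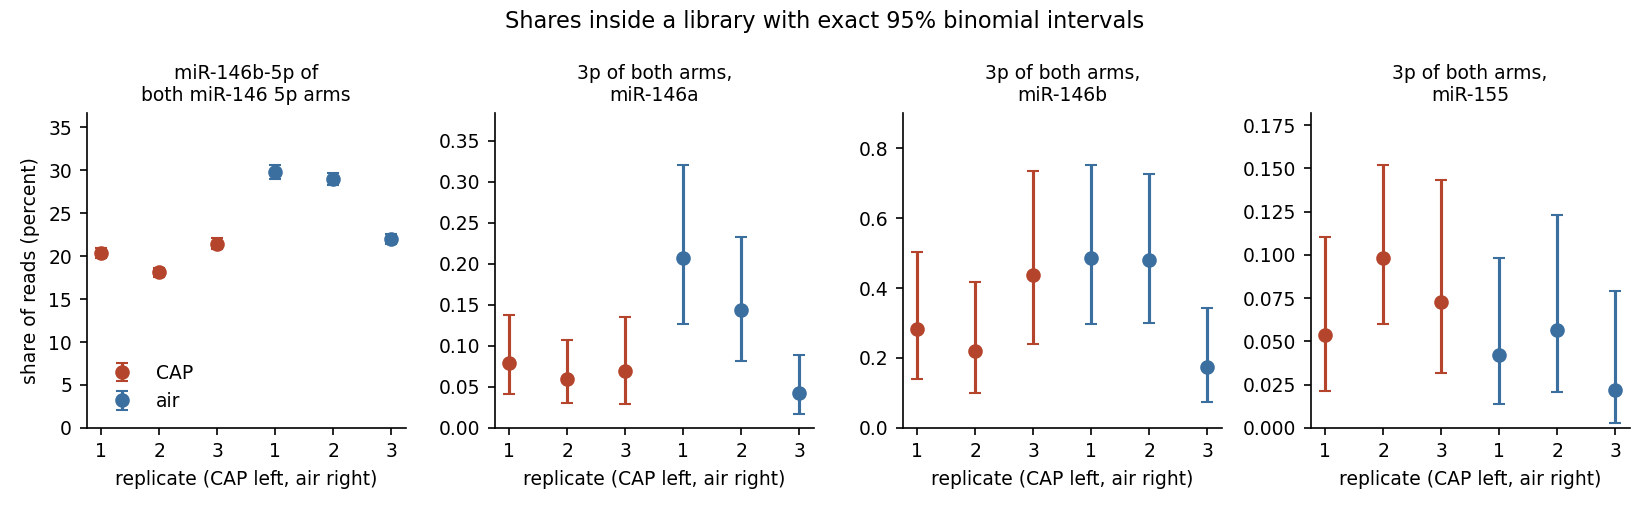
Share of reads in percent (vertical axis, from 0, 1 scale per panel) in each library (horizontal axis, CAP left of air) for miR-146b-5p among both miR-146 guide strands and for the 3p arm of each precursor; bars are exact 95% binomial intervals. In the first panel the CAP points (18.1 to 21.5%) lie below the air points (21.98 to 29.8%), and in the others the groups overlap.

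Air replicate 3 recurred at the extremes of the 6 arms. It was the highest of all libraries for miR-146a-5p and miR-146b-5p, and the lowest for miR-155-5p, miR-155-3p and miR-146a-3p. It was also the highest for endothelial miR-126a-3p, at 4005 CPM. The CAP libraries 1, 2 and 3 had 2760, 749 and 1520 CPM of it, and the other 2 air libraries 2116 and 1516 CPM. CAP replicate 2 was the highest library for miR-155-5p and miR-155-3p and the lowest for miR-126a-3p. These extremes were not particular to the endothelial marker. Stromal miR-199a-3p was also highest in air replicate 3 (33380 CPM) and lowest in CAP replicate 2 (14120 CPM). The same held for stromal miR-199a-5p (6452 and 3399 CPM) and miR-214-3p (669 and 208 CPM). Stromal miR-143-3p and miR-145a-5p were highest in air replicate 3 too, but lowest in CAP replicate 1. The part of cell content in these values was not tested.

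The distribution of all fold changes was centred near 0, with a median log2 fold change of 0.00 over 677 miRNAs, 342 of them higher and 335 lower in CAP. Of the 5 arms that passed the filter, 2 were higher and 3 lower. Among those 5 only miR-155-5p had a 95% interval, not adjusted for the number of miRNAs, that left out 0, and so did miR-155-3p in the unfiltered fit.

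**Figure D4:**
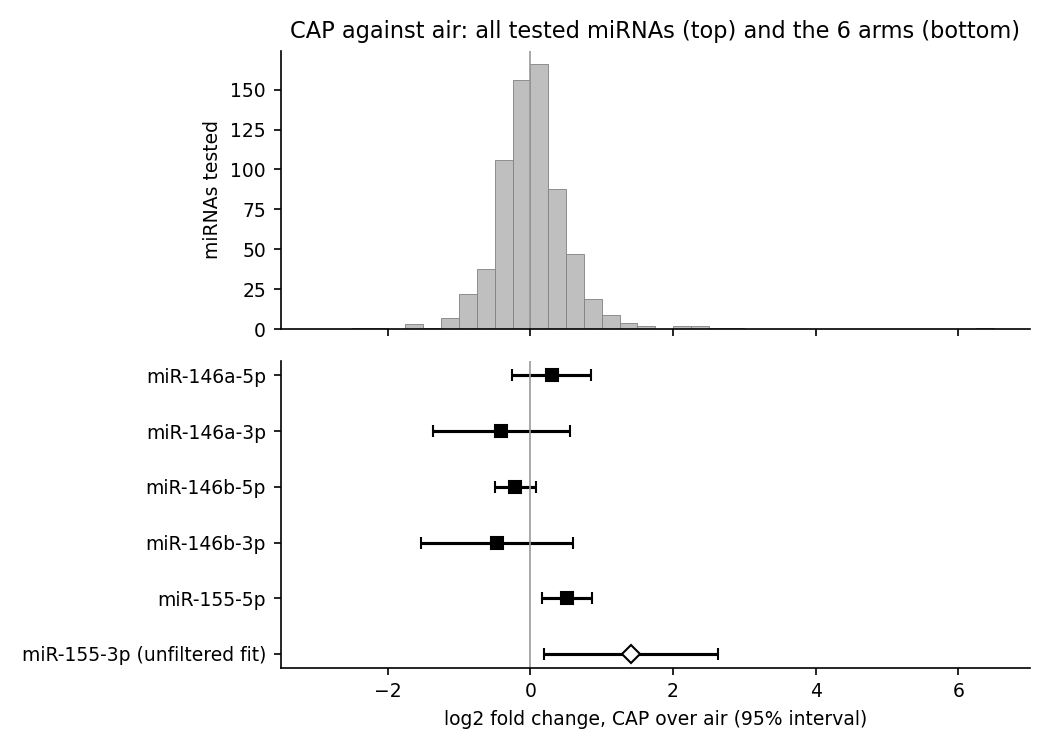
Top, number of miRNAs tested (vertical axis) by log2 fold change of CAP over air (horizontal axis), over all 677. Bottom, log2 fold change of each arm with its 95% interval; the open diamond is miR-155-3p from the fit with no filter. The intervals of miR-155-5p (0.16 to 0.86) and miR-155-3p (0.19 to 2.62) lie above 0, and the 4 others include 0.

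Other miRNAs that NF-kB or Toll-like receptor signals are known to induce gave a setting for the 6 arms. Of these 16 miRNAs 4 were higher and 12 lower in CAP, and the median log2 fold change was −0.11 against 0.00 for all miRNAs tested. None passed the edgeR adjusted p of 0.05, and 2 had an unadjusted p under 0.05, or 1 in each direction, beside 21% of all tested. These 2 were named after their values were seen. miR-132-3p, also induced by CREB, was at 57.2 ± 3.62 CPM in CAP cells and 76.1 ± 10.03 CPM in air cells (log2 fold change −0.41, standard error 0.13, edgeR adjusted p = 0.161). miR-21a-3p, the passenger strand of the abundant miR-21a, was at 1068 ± 27.0 CPM in CAP cells and 901 ± 33.3 CPM in air cells (log2 fold change 0.24, standard error 0.09, edgeR adjusted p = 0.183). Neither overlapped between the groups, as was the case for 29% of all miRNAs tested. The 3 most abundant of the list overlapped: miR-21a-5p at 112300 ± 14620 CPM in CAP cells and 117400 ± 7029 CPM in air cells, miR-221-3p at 9738 ± 449 CPM in CAP cells and 10610 ± 609 CPM in air cells, and miR-125a-5p at 9354 ± 1343 CPM in CAP cells and 9506 ± 849 CPM in air cells.

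A second list held 11 miRNAs described as repressing parts or outputs of the NF-kB pathway. The list was not sorted by whether the repressed part carries or restrains the signal, so its median has no single meaning for the pathway. In CAP, 6 were higher and 5 lower, the median log2 fold change was 0.07, and 1 in each direction had an unadjusted p under 0.05, or 2 of 11 beside 21% of all miRNAs tested. miR-16-5p, which represses the kinase gene Chuk among many targets, was at 59350, 68560 and 62950 CPM in CAP replicates 1, 2 and 3. In air replicates 1, 2 and 3 it was at 49970, 54550 and 52540 CPM, below all CAP libraries, as for the 14.6% of all miRNAs that were higher in CAP without overlap (log2 fold change 0.28, standard error 0.07, edgeR adjusted p = 0.146). miR-181b-5p, which represses importin-α3, a carrier of NF-kB into the nucleus, was at 137 ± 16.8 CPM in CAP cells and 178 ± 4.83 CPM in air cells (log2 fold change −0.39, standard error 0.12, edgeR adjusted p = 0.161). It was named after its values were seen. miR-125b-5p, at 132200 ± 26350 CPM in CAP cells and 124800 ± 6715 CPM in air cells, and miR-223-3p overlapped between the groups.

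miR-155 and miR-146a are also abundant in myeloid and lymphoid cells, whose markers were therefore read beside them. Of 8 myeloid and macrophage markers 6 were higher and 2 lower in CAP, the median log2 fold change was 0.15, and none passed the edgeR adjusted p. Their summed level was 63790 to 81400 CPM in CAP cells and 60710 to 74800 CPM in air cells, so that the groups overlapped. miR-142a-3p was at 30780, 33120 and 24260 CPM in the CAP libraries 1, 2 and 3 and at 24080, 28490 and 24690 CPM in the air libraries 1, 2 and 3, with CAP replicate 2 the highest as for miR-155-5p. miR-223-3p was at 30590 ± 2277 CPM in CAP cells and 28210 ± 3638 CPM in air cells, and its log2 fold change was 0.12 with a standard error of 0.11. At an unadjusted p under 0.05, miR-342-3p and miR-342-5p were higher and miR-511-3p lower, which were named after their values were seen, with log2 fold changes of 0.50, 0.76 and −0.67 (edgeR adjusted p = 0.181, 0.157 and 0.157). These were 3 of 8, beside 21% of all miRNAs tested. The third most abundant myeloid marker, miR-142a-5p, averaged 9140 ± 1330 CPM in CAP cells, against 8920 ± 1197 CPM in air cells.

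Of 4 lymphoid markers, summing to 381 to 436 CPM in CAP cells and 479 to 531 CPM in air cells, 3 were tested, of which 1 had a positive and 2 a negative log2 fold change (median −0.24). Most of the sum was miR-181a-5p in every library. The B and T cell miRNA miR-150-5p averaged 12.3 ± 4.94 CPM in CAP cells, against 14.5 ± 2.33 CPM in air cells, and overlapped between the groups. miR-181a-5p averaged 317 ± 20.7 CPM in CAP cells, against 414 ± 26.4 CPM in air cells without overlap (edgeR unadjusted p = 0.00709, adjusted p = 0.146), beside 14.3% of all miRNAs that were lower without overlap, and its opposite arm miR-181a-1-3p 76.4 ± 5.08 CPM in CAP cells, against 73.1 ± 1.17 CPM in air cells (SD, n = 3 each). Among 8 markers of stroma and smooth muscle 1 was higher and 7 were lower, with a median of −0.34 and a summed level of 39830 to 58060 CPM in CAP and 53580 to 66650 CPM in air. Its most abundant members miR-199a-3p, miR-143-3p and miR-199a-5p overlapped between the groups, with log2 fold changes of −0.50, −0.11 and −0.31. Named after their values were seen, miR-214-3p and miR-145a-5p were lower without overlap and had an unadjusted p under 0.05, 2 of 8 beside 9.45% of all miRNAs tested that were lower at that p. miR-214-3p was at 271, 208 and 355 CPM in CAP replicates 1, 2 and 3 and at 527, 497 and 669 CPM in air replicates 1, 2 and 3 (log2 fold change −1.02, standard error 0.21, edgeR unadjusted p = 0.00183, adjusted p = 0.146). miR-145a-5p averaged 1553 ± 181 CPM in CAP cells, against 2008 ± 117 CPM in air cells (log2 fold change −0.37, edgeR unadjusted p = 0.014, adjusted p = 0.161). In the endothelial list 1 of 3 tested was higher and 2 lower, with a median of −0.54, and log2 fold changes of −0.60 for miR-126a-3p, −0.54 for miR-126a-5p and 0.13 for the scarce miR-126b-3p. All 4 erythroid markers were higher, with a median of 0.78, and overlapped between the groups. Of these, miR-451a and miR-144-3p were at 33.0 and 30.7 CPM in CAP replicate 1, and at most 9.63 and 12.3 CPM in the other 5 libraries, and miR-486a-5p averaged 23.4 ± 4.83 CPM in CAP and 20.8 ± 3.84 CPM in air. Of 2 liver markers 1 was tested, miR-122-5p, whose log2 fold change of 6.28 (edgeR adjusted p = 0.161) rested on that library. No marker of these lists was at 0 in all libraries. None passed the adjusted p of the edgeR test, which called 0 of the 677 miRNAs. The study, with its own DESeq2 test, listed miR-342-5p as higher and miR-214-3p and miR-511-3p as lower after CAP. The part of these markers in the level of miR-155-5p was not tested.

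**Figure D5:**
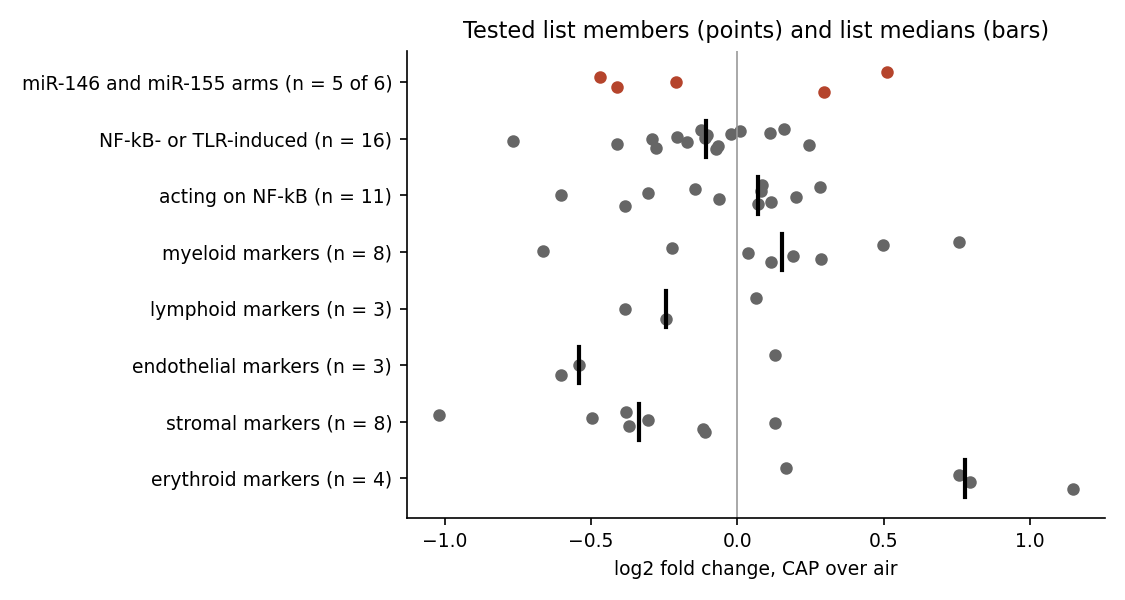
Log2 fold change of CAP over air (horizontal axis) for the tested arms of miR-146 and miR-155 (top row) and for the tested members of each list (rows below); points are miRNAs and bars are list medians. The NF-kB- or TLR-induced list has its median at −0.11 and the myeloid list at 0.15, and the only liver marker tested, miR-122-5p, is left out because 1 library sets its value.

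The miRNAs most like each guide strand were found from log2 CPM centred on its mean over the 6 libraries, by the root mean square difference from the guide strand, among 181 other miRNAs with a mean of at least 100 CPM. For miR-155-5p they were miR-5099, miR-467c-5p and miR-17-5p, with differences of 0.08, 0.11 and 0.11, against a median of 0.34 over the 181. miR-17-5p was at 256, 392 and 226 CPM in the CAP libraries 1, 2 and 3 and at 223, 217 and 178 CPM in the air libraries 1, 2 and 3, highest in CAP replicate 2 and lowest in air replicate 3 as miR-155-5p was. miR-5099 had the same highest and lowest libraries, at 330 and 154.8 CPM. For miR-146b-5p they were miR-101a-3p, miR-361-5p and miR-872-3p, with differences of 0.08, 0.10 and 0.10 against a median of 0.21.

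For miR-146a-5p the closest were miR-10a-5p, miR-27b-3p and let-7j, with larger differences of 0.22, 0.26 and 0.27 against a median of 0.39. miR-10a-5p, a repressor of NF-kB signalling in endothelium, was at 1861, 2089 and 1473 CPM in the CAP libraries 1, 2 and 3 and at 1531, 1537 and 2095 CPM in the air libraries 1, 2 and 3. Its air replicate 3 was high as for miR-146a-5p, and the groups overlapped. miR-27b-3p and let-7j were higher in CAP without overlap, beside 14.6% of all miRNAs tested. Their log2 fold changes were 0.36 and 0.25 (edgeR adjusted p = 0.146 and 0.168). No guide strand was among the 3 closest to another. In closeness to miR-146a-5p, miR-146b-5p ranked 52nd with a difference of 0.35 and miR-155-5p 62nd with 0.36. Both differences were under the median of 0.39. In closeness to miR-146b-5p, miR-146a-5p ranked 159th and miR-155-5p 167th, the latter with a difference of 0.43. In closeness to miR-155-5p, miR-146a-5p ranked 101st and miR-146b-5p 122nd. These values describe 6 libraries and share their scaling.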

How the data were processed

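The raw read counts deposited by the authors, per mature miRNA and precursor and not normalised, came from QIAseq miRNA libraries that were trimmed with Trimmomatic, mapped to mm10 with mirDeep2 and bowtie, and quantified against miRBase. According to the submitters' processing notes, bcl2fastq 20.0.422 was used. Collapsing by molecular identifier was not stated, so intervals and limits cover counting error only.

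Where a mature name had several rows, only that of the largest total was used. Replicates differed by more than sampling noise (chi-square per degree of freedom at least 67.6), and all were kept. The test of the groups used edgeR 4.0.16 under R 4.3.3 (default filter, TMM, quasi-likelihood fit on the group, Benjamini–Hochberg adjustment over 677 miRNAs). Standard errors were derived from the F statistic, and the 5 ratios inside libraries were compared by exact permutation (scipy 1.17.1). DESeq2 1.42.0, the tool of the study's test, and limma 3.58.1 (voom) were alternatives, beside other scalings, filters and row choices, a replicate block and leaving out each library. DESeq2 was run here on 1 row per mature name and was not a repeat of the study's own run. Figures used matplotlib 3.10.9.

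All 6 arms were described. From each of 8 lists the 3 most abundant tested miRNAs were to be named where the list was described, and for each guide strand the 3 miRNAs of most similar profile. Members and lists were chosen with earlier results of these data known.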

Additional observations from a re-analysis of the deposited data

How the results depend on the processing

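All 88 alternative fits of the 6 arms kept the direction of the log2 fold change, and none passed an adjusted p of 0.05. For miR-155-5p the log2 fold change was 0.49 to 0.66 with other scalings, filters, rows and tools and 0.33 to 0.58 without each library, with an adjusted p of 0.0621 (DESeq2) to 0.347. The ranges without each library were 0.08 to 0.60 for miR-146a-5p, −0.33 to −0.14 for miR-146b-5p, −0.71 to −0.17 for miR-146a-3p, −0.78 to −0.23 for miR-146b-3p and 0.96 to 1.72 for miR-155-3p. Upper-quartile scaling moved the median of all miRNAs to 0.15, and there miR-155-5p was at 0.66, miR-146a-5p at 0.46 and miR-146b-5p at −0.06. The number of miRNAs called was 0 in every edgeR fit with the filter on low counts, 13 in the edgeR fit without it and 30 with DESeq2. For miR-155-3p the DESeq2 unadjusted p was 0.0846, and DESeq2 gave it no adjusted p.

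With the replicate number of the sample titles as a replicate block, 0 miRNAs were called, and the log2 fold change was 0.50 for miR-155-5p (edgeR adjusted p = 0.159), 0.35 for miR-146a-5p and −0.20 for miR-146b-5p. Deviations of libraries with the same title number had correlations of 0.02, −0.02 and 0.14. The labels' descriptions number the libraries differently, and the only number that both groups share there joins CAP replicate 2 and air replicate 3, with a correlation of −0.19. The numbers were not taken as pairs.

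Without each library in turn the difference in the miR-146b-5p share was −9.42 to −5.51 percentage points. That in the 3p share was 0.0231 to 0.0454 for miR-155, −0.106 to −0.024 for miR-146a and −0.170 to −0.0138 for miR-146b. The log2 ratio of miR-155-5p to miR-146a-5p ran between −0.17 and 0.40. Depth limits the passenger strands, which had 2 to 22 counts per library.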
